A study of Mus musculus with 36 samples.

Results

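The genes described here were 10 members of the p53 pathway and of the cell-cycle arrest machinery of senescence, chosen by symbol, and all 10 had an Ensembl identifier among the 52636 genes of the count tables. They were Trp53 itself, its inhibitor Mdm2, the cyclin-dependent kinase inhibitors Cdkn1a, Cdkn2a and Cdkn2b, the p53 targets Ccng1 and Trp53inp1, the stress cytokine gene Gdf15 and the apoptosis genes Bbc3 and Bax. Their levels were followed in intestinal organoids, closed epithelial structures grown in a matrix from crypts of the jejunum of C57BL/6 mice, after 2 days of culture in different media. There were 6 groups with 6 replicates each, sequenced as 36 libraries. Complete media + IgG (the growth medium IntestiCult with control antibody) was the reference. QCM + IgG held medium conditioned by mouse embryonic fibroblasts made quiescent by low serum, and SCM + IgG held medium conditioned by the same kind of fibroblasts made senescent. Per the study's methods, conditioned medium was concentrated and mixed with IntestiCult. SCM + anti-Ptk7 had SCM with an antibody against Ptk7, a Wnt co-receptor whose shed extracellular part the study traced in SCM. Wnt5a + IgG and Wnt5a + anti-Ptk7 had recombinant Wnt5a, a noncanonical Wnt ligand, in complete media. Every culture therefore received either IgG or anti-Ptk7, and complete media with anti-Ptk7 was not analysed here. The study made fibroblasts senescent with X-rays or with doxorubicin, and which of them preceded these libraries is not given in the sources used here. Which replicates share a mouse is likewise not given, so p-values measure the spread between these libraries.

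p53 is a transcription factor that is kept low by Mdm2, its ubiquitin ligase and target, and that turns on genes of arrest, repair and apoptosis after DNA damage. Senescence is a lasting arrest held by Cdkn1a (p21) downstream of p53 and by the INK4 inhibitors of Cdk4 and Cdk6, Cdkn2a (p16, with p19Arf from the same gene) and Cdkn2b (p15), upstream of the retinoblastoma protein. Senescent cells secrete the cytokines, proteases and growth factor binding proteins of the senescence-associated secretory phenotype (SASP), which in some tissues can bring neighbouring cells into senescence. The question put to the data was whether epithelium bathed in SCM took on the expression of these genes. In bulk RNA, fewer cells that express a gene and less RNA of it per cell cannot be told apart.

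The promoters of the 2 inhibitors on which the results turn are shown first, followed by the stretches of the other promoters that hold a p53 decamer, the 10-letter sequence of which a p53 response element has a pair. The windows run from 250 bases before to 50 bases after a RefSeq transcription start (GRCm38.p6), and 9 of the 10 genes matched such a window, with 14 windows in all. Trp53inp1 had no entry. Decamers were matched exactly on both strands. The Cdkn1a promoter, chr17:29090729-29091028 on the plus strand, lies 2790 bases upstream of the second Cdkn1a start, and capitals mark its 2 decamers:
Cdkn1a: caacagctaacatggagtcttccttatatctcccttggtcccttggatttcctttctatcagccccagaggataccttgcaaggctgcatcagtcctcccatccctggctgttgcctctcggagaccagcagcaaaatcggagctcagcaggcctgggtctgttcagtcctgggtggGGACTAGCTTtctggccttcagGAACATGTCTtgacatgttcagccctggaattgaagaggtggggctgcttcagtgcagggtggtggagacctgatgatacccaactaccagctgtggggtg
Its decamers began 73 and 51 bases before the start and were separated by 12 bases, and the same letters lay 2863 to 2832 bases before the second start. Such a pair, with at most 13 bases between, was found in 0.0731% of all 32851 promoters of the table and in no other window of the 10 genes. A single decamer occurred in 8.36% of all promoters and in 5 of the genes. The other 4 are shown with the decamer in capitals and 10 bases on either side:
Trp53: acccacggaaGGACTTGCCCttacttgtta
Mdm2: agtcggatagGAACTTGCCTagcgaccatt
Ccng1: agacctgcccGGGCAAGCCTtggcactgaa
Bax: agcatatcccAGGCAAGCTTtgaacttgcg
The Trp53 decamer began 75 bases before the start in chr11:69580109-69580408 (plus strand), that of Mdm2 186 bases before it in chr10:117710709-117711008 (minus strand), that of Ccng1 185 bases before it in chr11:40755237-40755536 (minus strand) and that of Bax 201 bases before it in chr7:45466849-45467148 (minus strand). The Cdkn2b promoter, chr4:89310983-89311282 on the minus strand, held no decamer, and capitals mark an SP1 box (GGGCGG or its reverse CCGCCC):
Cdkn2b: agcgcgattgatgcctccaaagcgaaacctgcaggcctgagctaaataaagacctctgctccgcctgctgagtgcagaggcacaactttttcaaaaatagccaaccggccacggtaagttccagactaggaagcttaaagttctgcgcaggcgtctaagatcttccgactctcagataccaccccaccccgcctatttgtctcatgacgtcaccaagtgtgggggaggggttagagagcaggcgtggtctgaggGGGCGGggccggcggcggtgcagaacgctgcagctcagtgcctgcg
The SP1 box was found in 9 of the 14 windows and in 35.7% of all promoters. The TEAD core GGAATG or its reverse CATTCC, the site of the partners of YAP, was found in 1 of the 14 windows, a Gdf15 promoter, and in 14.7% of all promoters. A match of letters describes these windows only and is not a bound site.

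Library totals ran from 9581589 to 21029769 counts, and 15497 genes passed the filter on low counts. Of 9 epithelial markers (Epcam, Cdh1, Cldn7, Cdx2, Vil1 and 4 keratins), all were above 0.5 CPM (counts scaled to library size) on average, whereas 9 of 10 fibroblast markers were below it, with Thy1, Col3a1 and Dcn without a single count, and the summed fibroblast level ran from 0.702 to 8.02 CPM. The remaining one, Pdgfrb, ran from 0.0 to 2.32 CPM in SCM + IgG and from 2.01 to 6.34 CPM in SCM + anti-Ptk7 (log2 difference 1.88, adjusted p = 0.0927 with edgeR and 0.0343 with DESeq2), and its part in the antibody results was not tested. All 4 endothelial markers and 5 of 7 immune markers, Ptprc, Cd3e, Cd3g, Cd79a and Adgre1, were below 0.5 CPM as well, whereas the other immune markers, Csf1r and Cd68, averaged 13.9 and 1.24 CPM over the libraries. SCM + IgG replicate 1 stood apart from the other libraries on the second principal component. Without it the number of members called stayed as given in every comparison, and the values that it moved most are given beside the result.

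Of the 10 genes, 9 were detected. Cdkn2a averaged less than 0.5 CPM and is reported as not detected, with 5 counts in all libraries together. The other 9 had counts in all 36 libraries and were tested. The study's methods state that reads in coding sequence were counted, so levels between genes were set side by side per kilobase (kb) of coding length as well as of all exons. Per kb of coding length, Cdkn1a had a mean of 570 CPM over the 36 libraries, Ccng1 447, Bax 253 and Trp53 149. Mdm2 and Cdkn2b (64.0 and 63.8) and Trp53inp1 (61.6) were alike, and Gdf15 at 24.6 and Bbc3 at 19.3 CPM per kb were the lowest of the detected genes. Per kb of all exons the same 4 genes led in another order, with Ccng1 at 112, Bax at 98.5, Cdkn1a at 76.5 and Trp53 at 45.1 CPM per kb, so the order at the head depends on the length used.

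In SCM, compared with complete media, 1 of the 9 genes was called higher and none lower, where a call took an adjusted p below 0.05 together with a change of more than 1.5-fold. The gene was Cdkn2b. Of all genes tested, 4.96% were called higher and 1.12% lower in that comparison. Cdkn1a rose in the same comparison by less than 1.5-fold, at an adjusted p below 0.05, a criterion that 7.43% of all genes met upwards. Compared with QCM, the medium that controls for what fibroblasts secrete while not senescent, no gene of the 9 was called by edgeR, DESeq2 or voom with limma (0.761% of all genes were called higher and 0.142% lower by edgeR). At an unadjusted p under 0.05, 3 of the 9, Cdkn1a, Cdkn2b and Mdm2, were higher in SCM than in QCM with edgeR, as were 8.5% of all genes. QCM against complete media gave no call either with any of the 3 tools (0.355% higher and 0.0194% lower over all genes), and 1 gene, Ccng1, was lower at an unadjusted p under 0.05 with edgeR, as were 4.25% of all genes. In Wnt5a, 1 gene was called higher, Cdkn2b, and 1 lower, Gdf15, against 8.29% and 1.88% of all genes. Over the 9 genes, the log2 difference had a median of 0.12 for SCM against complete media and of 0.21 for SCM against QCM, where all genes tested had medians of 0.0068 and -0.0078. The 9 values were 5 positive and 4 negative in SCM against QCM, and 6 positive and 3 negative in SCM against complete media.

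**Figure D1:**
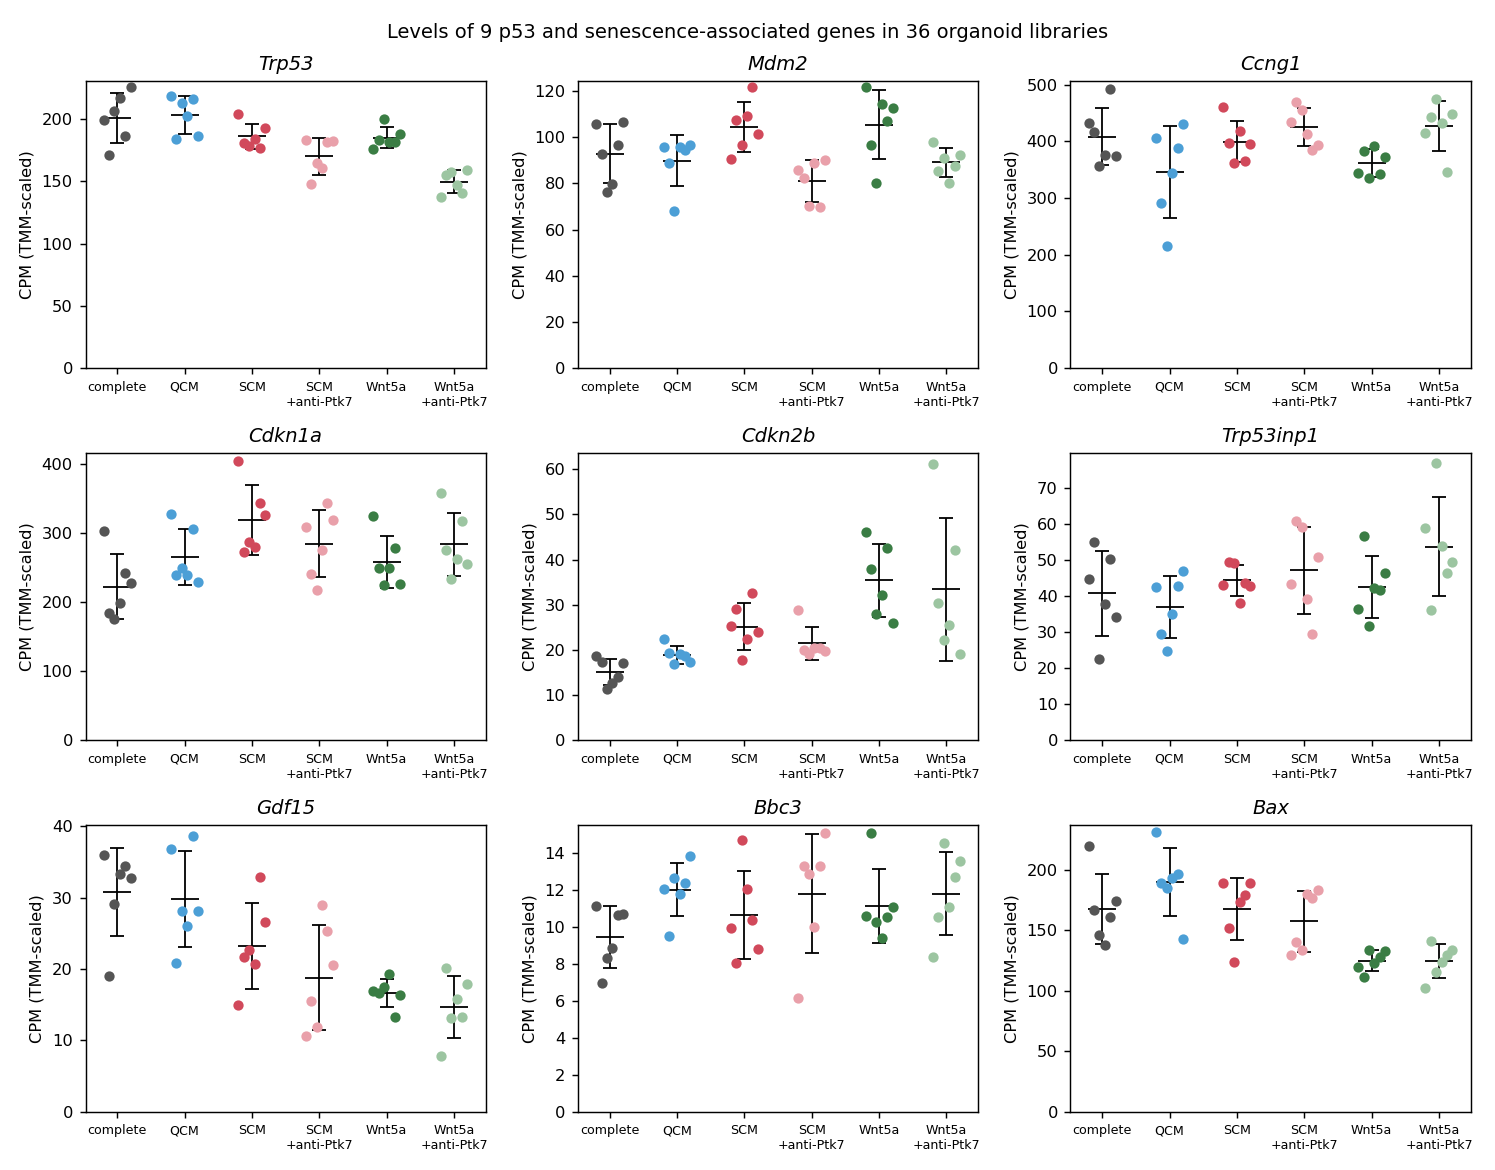
Levels of the 9 detected genes in CPM after scaling by the trimmed mean of M values (TMM, vertical axes from 0) in the 6 groups, with 1 point for each library in order of replicate number and black bars for the mean ± SD (n = 6). Cdkn2b in Wnt5a + IgG lay at 25.9 to 46.2 CPM, above all complete media libraries (11.3 to 18.6 CPM), while the Cdkn1a points of SCM + IgG (272 to 404 CPM) overlapped those of QCM + IgG (229 to 327 CPM).

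Trp53, the p53 gene itself, lies at chr11:69580359-69591873 (plus strand, GRCm38). Its level in complete media was 171 CPM in the lowest, 203 in the median and 226 in the highest library, in QCM it was 184, 208 and 219 CPM, and in SCM 177, 182 and 204 CPM. These 3 groups overlapped. SCM differed from complete media by a log2 fold change of -0.11 ± 0.067 (SE, adjusted p = 0.313) and from QCM by -0.13 (95% interval -0.27 to 0.0064, adjusted p = 0.324). In Wnt5a + IgG the lowest, median and highest libraries had 176, 182 and 200 CPM, and in Wnt5a + anti-Ptk7 137, 151 and 159 CPM. The 2 groups did not overlap, and Trp53 fell by 0.31 ± 0.067 (log2, SE, adjusted p = 0.00863), which is less than 1.5-fold. In SCM the corresponding difference with anti-Ptk7 was -0.13 (adjusted p = 0.317), from a mean of 186 ± 10.4 (SD, n = 6) to 170 ± 14.6 CPM. The difference between the 2 antibody effects on Trp53 was -0.18 (95% interval -0.37 to 0.014, adjusted p = 0.999). In the order of group means, QCM, complete media, SCM and Wnt5a (204, 201, 186 and 185 CPM) were each within 1 SD of the next, and both anti-Ptk7 groups came last.

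Mdm2 (chr10:117688875-117710758, minus strand), which encodes the ligase that marks p53 for degradation and is itself turned on by p53, ran from 76.1 to 107 CPM in complete media (median 94.7), from 67.9 to 96.6 CPM in QCM (median 95.1) and from 90.6 to 122 CPM in SCM (median 104). The 3 groups overlapped. Against QCM its log2 difference in SCM was 0.22 (95% interval 0.013 to 0.42, adjusted p = 0.261), and without QCM + IgG replicate 3, the library at 67.9 CPM, it was 0.15 (adjusted p = 0.569). With anti-Ptk7, Mdm2 in SCM lay at 69.9 CPM in the lowest, 84.0 in the median and 90.0 in the highest library. No library of SCM + anti-Ptk7 reached the lowest of SCM + IgG. Mdm2 fell by 0.36 ± 0.10 (log2, SE, adjusted p = 0.0416), less than 1.5-fold. The adjusted p stayed below 0.05 in 27 of the 36 fits that left out 1 library, over a range from 0.0255 to 0.0990, and was 0.0419 without SCM + IgG replicate 1. With all libraries kept, it was above 0.05 with scaling by library size alone (0.0512), with no filter (0.0694) and in a fit of only the groups compared (0.0969). In Wnt5a the antibody difference was -0.24 (95% interval -0.45 to -0.038, adjusted p = 0.223), with overlapping groups of 80.2 to 122 CPM (IgG) and 80.2 to 98.1 CPM (anti-Ptk7). No gene of the 9 was called for anti-Ptk7 against IgG by edgeR, DESeq2 or voom with limma. In SCM, edgeR called 0.581% of all genes higher and 0.645% lower, with Mdm2 the only gene of the 9 at an unadjusted p under 0.05 (lower, as were 8.76% of all genes) or at an adjusted p under 0.05 (lower, as were 1.44%). In Wnt5a it called 0.452% higher and 0.432% lower, and 3 of the 9 had an unadjusted p under 0.05, Trp53 and Mdm2 lower (7.94% of all genes) and Ccng1 higher with anti-Ptk7 (7.11%). Trp53 was the only gene of the 9 at an adjusted p under 0.05 there, as were 1.52% of all genes downwards. The test of the difference between the antibody effects in Wnt5a and in SCM called none of the 9 with any of the 3 tools and 0.0% of all genes with edgeR, and none of the 9 had an unadjusted p under 0.05, a level that 3.88% of all genes reached in either direction.

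Cdkn1a encodes p21, which binds cyclin-dependent kinases and is the best known arrest target of p53. It lies at chr17:29090976-29100727 (plus strand), and its level per library was 175 CPM in the lowest, 213 in the median and 303 in the highest library of complete media. In QCM the corresponding values were 229, 244 and 327 CPM, and in SCM they were 272, 306 and 404 CPM. All but 1 of the complete media libraries were below every SCM library, whereas QCM overlapped both. The group means were 222 ± 47.2 (SD, n = 6), 265 ± 40.9 and 319 ± 50.3 CPM. Against complete media Cdkn1a rose in SCM by a log2 fold change of 0.52 ± 0.13 (SE, 95% interval 0.26 to 0.79, adjusted p = 0.00708), or 1.44-fold, just under the fold needed for a call. Without SCM + IgG replicate 1, which had the highest Cdkn1a level, the value was 0.44 (adjusted p = 0.0394). Without complete media + IgG replicate 1, the highest of its group, it was 0.64 (adjusted p = 0.00153) and passed the call. Against QCM the difference was 0.27 (95% interval 0.00017 to 0.53, adjusted p = 0.294), and without SCM + IgG replicate 1 it was 0.20 (adjusted p = 0.543). QCM itself differed from complete media by 0.26 (95% interval -0.011 to 0.52, adjusted p = 0.445). Neither of these differences passed the test, which takes the libraries as unpaired. The interval of SCM against QCM runs from no difference to 1.45-fold. A fit with a block for the replicate number gave lower adjusted p-values for both, which are given below. The labels do not say that a number marks a mouse.

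Wnt5a + IgG held 224 to 324 CPM of Cdkn1a (median 248.6), within the range of the other groups. It differed from complete media by a log2 fold change of 0.22 (95% interval -0.047 to 0.49, adjusted p = 0.253) and from SCM by -0.30 (95% interval -0.57 to -0.037, adjusted p = 0.196). With anti-Ptk7 the level ran from 217 to 343 CPM in SCM (log2 difference -0.17, adjusted p = 0.555) and from 233 to 358 CPM in Wnt5a (0.13, adjusted p = 0.710). Both anti-Ptk7 groups overlapped their IgG groups. In the order of group means from SCM + IgG down to complete media + IgG, each neighbouring pair differed by less than 1 SD. The exons of Cdkn1a share 273 bases with a transcript model on the opposite strand, which the count tables do not list.

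Cdkn2a (chr4:89274471-89294653, minus strand), the gene of p16 and p19Arf and a standard marker of senescent cells, had no count in 34 of the 36 libraries. SCM + IgG replicate 2 had 4 counts (0.257 CPM) and SCM + IgG replicate 5 had 1. In each of the other 5 groups it had 0 counts, which allows a level of up to 0.0340 to 0.0421 CPM over the group, for counting error only. Both libraries with counts were SCM + IgG libraries, but at a mean of 0.0595 ± 0.105 CPM (SD, n = 6) the gene was below the detection limit there too, and it was not tested. Of the 2 INK4 genes among the members, the organoids expressed Cdkn2b, the neighbour of Cdkn2a upstream on the same strand, with 11645 bases between them.

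Cdkn2b (chr4:89306299-89311039, minus strand) encodes p15, an inhibitor of Cdk4 and Cdk6 that is induced by TGF-beta and by other signals that hold epithelial cells in G1. In complete media its lowest, median and highest libraries had 11.3, 15.5 and 18.6 CPM, in QCM 16.9, 18.8 and 22.5 CPM, and in SCM 17.7, 24.5 and 32.6 CPM. SCM overlapped complete media by its lowest library alone and overlapped QCM by its lower libraries. Cdkn2b rose in SCM against complete media by a log2 fold change of 0.73 ± 0.20 (SE, 95% interval 0.32 to 1.15, adjusted p = 0.0147), or 1.66-fold. The call held in 35 of the 36 fits that left out 1 library. It was lost without complete media + IgG replicate 3, the lowest library, where the value was 0.65 (adjusted p = 0.0525), and without SCM + IgG replicate 1 the value was 0.72 (adjusted p = 0.0333). Against QCM the difference was 0.41 (95% interval 0.0013 to 0.82, adjusted p = 0.293), and QCM differed from complete media by 0.32 (95% interval -0.087 to 0.74, adjusted p = 0.549). As for Cdkn1a, the group mean of QCM, 18.9 ± 1.98 CPM (SD, n = 6), lay between that of complete media, 15.1 ± 2.91, and that of SCM, 25.1 ± 5.205 CPM.

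The 2 Wnt5a groups had the highest Cdkn2b means, 35.4 CPM with IgG and 33.4 CPM with anti-Ptk7, within 1 SD of each other. The Wnt5a + IgG libraries had 25.9 CPM in the lowest, 35.04 in the median and 46.2 in the highest, and none overlapped complete media. Cdkn2b rose there by 1.23 ± 0.20 (log2, SE, adjusted p = 4.13e-05), or 2.35-fold, and the call held in all 36 fits that left out 1 library. Wnt5a against SCM gave 0.50 (95% interval 0.094 to 0.90, adjusted p = 0.157), so that a higher level in Wnt5a than in SCM was not resolved. These 2 media differ in the conditioned medium of fibroblasts as well as in the added Wnt5a. For Wnt5a against SCM no gene of the 9 was called with any of the 3 tools (0.297% of all genes were called higher and 0.394% lower with edgeR), and 4 had an unadjusted p under 0.05 with edgeR, Cdkn2b higher in Wnt5a (8.72% of all genes) and Cdkn1a, Gdf15 and Bax lower (10.2%). Anti-Ptk7 left Cdkn2b between 19.01 and 28.9 CPM in SCM (log2 difference -0.23, 95% interval -0.64 to 0.18, adjusted p = 0.598). In Wnt5a + anti-Ptk7 the level ran from 19.1 to 61.2 CPM, with an SD of 15.8 around a mean of 33.4 CPM, the widest of the 6 groups. The antibody difference there was -0.087 (95% interval -0.49 to 0.31, adjusted p = 0.897), and without Wnt5a + anti-Ptk7 replicate 1, the library at 61.2 CPM, it was -0.35 (adjusted p = 0.363). These intervals hold a fall with anti-Ptk7 as well as no change.

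**Figure D2:**
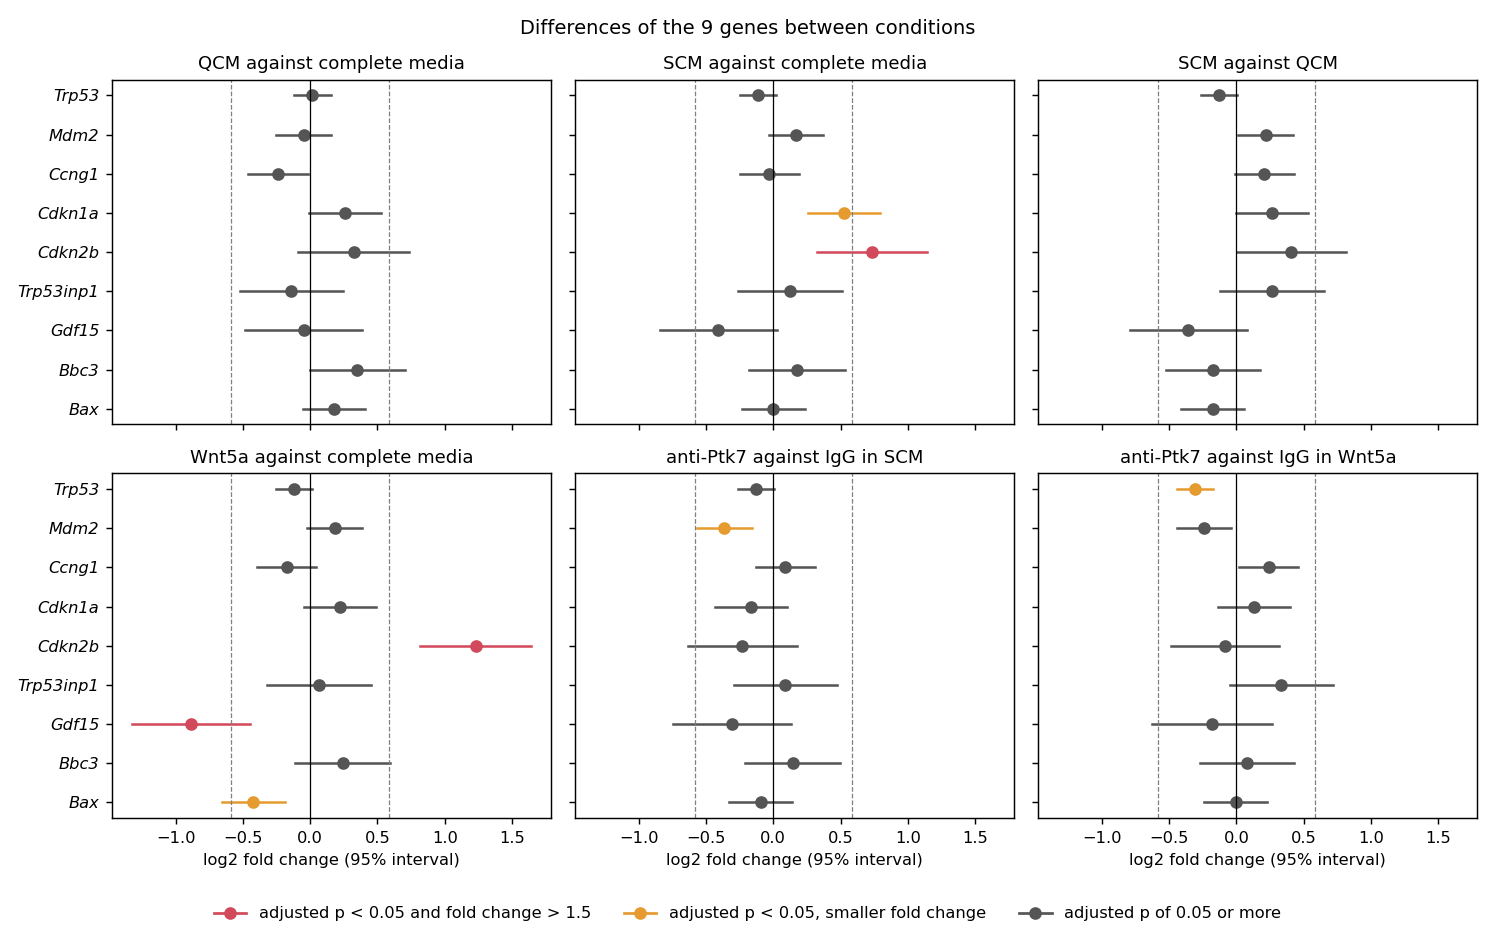
Log2 fold changes (horizontal axis, points) with 95% intervals (lines) of the 9 genes in 6 comparisons from the edgeR fit, with dashed lines at the 1.5-fold cutoff. Red marks called genes, which are Cdkn2b in SCM (0.73) and in Wnt5a (1.23) and Gdf15 in Wnt5a (-0.88) against complete media, orange marks smaller differences with an adjusted p under 0.05, and the panel of SCM against QCM holds neither.

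Ccng1 and Trp53inp1 are p53 targets whose products act in the feedback on p53 itself, Ccng1 as a cyclin that recruits a phosphatase to Mdm2 and Trp53inp1 as a nuclear cofactor of p53 in arrest and cell death. Ccng1 (chr11:40748552-40755311, minus strand) had 357 to 493 CPM in complete media (median 397), 215 to 431 CPM in QCM (median 367) and 363 to 460 CPM in SCM (median 396). The QCM group reached lower than the others and overlapped them. Ccng1 differed by -0.031 in SCM against complete media (log2, 95% interval -0.25 to 0.19, adjusted p = 0.896), by 0.21 against QCM (95% interval -0.012 to 0.43, adjusted p = 0.330) and by -0.24 in QCM against complete media (adjusted p = 0.369). The bounds for SCM against complete media leave room for at most a 1.14-fold rise. In Wnt5a + IgG it had 335 to 393 CPM and in Wnt5a + anti-Ptk7 347 to 475 CPM (0.24, 95% interval 0.019 to 0.46, adjusted p = 0.277).

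Trp53inp1 (chr4:11156431-11174379, plus strand) had 22.4 to 54.9 CPM in complete media (median 41.3), 24.8 to 47.0 CPM in QCM (median 38.7), 38.1 to 49.2 CPM in SCM (median 43.3) and 31.5 to 56.7 CPM in Wnt5a + IgG (median 41.8). All groups overlapped. Its log2 difference in SCM was 0.12 against complete media (95% interval -0.26 to 0.51, adjusted p = 0.740) and 0.26 against QCM (95% interval -0.12 to 0.65, adjusted p = 0.508). With anti-Ptk7 it ran from 29.3 to 60.8 CPM in SCM and from 36.1 to 77.0 CPM in Wnt5a, and neither difference passed the test (adjusted p = 0.859 and 0.420).

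Gdf15 encodes a secreted member of the TGF-beta family that p53 and the integrated stress response both induce and that senescent cells secrete. The gene lies at chr8:70629393-70632456 (minus strand). It had 18.99 CPM in the lowest, 33.1 in the median and 36 in the highest library of complete media, and 20.8, 28.1 and 38.7 CPM in QCM. In SCM the values were 14.98, 22.2 and 32.9 CPM, and in Wnt5a + IgG 13.3, 16.7 and 19.3 CPM. The SCM libraries overlapped both controls and the Wnt5a libraries overlapped complete media by a single library of the latter. Gdf15 fell in Wnt5a by 0.88 ± 0.22 (log2, SE, adjusted p = 0.00297), to 0.542 of the level in complete media, and the call held in all 36 fits that left out 1 library. In SCM the difference was -0.41 against complete media (95% interval -0.84 to 0.027, adjusted p = 0.240) and -0.36 against QCM (95% interval -0.79 to 0.075, adjusted p = 0.406). Without SCM + IgG replicate 1 these were -0.32 and -0.25. With anti-Ptk7 it ran from 10.7 to 29.01 CPM in SCM and from 7.85 to 20.1 CPM in Wnt5a (log2 differences -0.31 and -0.18, adjusted p = 0.499 and 0.774).

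Bbc3 (Puma) and Bax encode proapoptotic proteins of the BCL2 family, Bbc3 as a BH3-only activator and Bax as the pore former that opens the mitochondrial outer membrane. Bbc3 (chr7:16308393-16318205, plus strand) had 6.96 to 11.2 CPM in complete media (median 9.77), 9.49 to 13.8 CPM in QCM (median 12.2), 8.05 to 14.7 CPM in SCM (median 10.2) and 9.39 to 15.1 CPM in Wnt5a + IgG (median 10.6). The groups overlapped throughout. Its difference in SCM was 0.18 against complete media (log2, 95% interval -0.18 to 0.53, adjusted p = 0.585) and -0.17 against QCM (95% interval -0.52 to 0.18, adjusted p = 0.658). With anti-Ptk7 it ran from 6.16 to 15.1 CPM in SCM (log2 difference 0.14, adjusted p = 0.727) and from 8.39 to 14.5 CPM in Wnt5a (0.079, adjusted p = 0.892).

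Bax (chr7:45461697-45466898, minus strand) had 138 CPM in the lowest, 164 in the median and 220 in the highest library of complete media, 143, 191 and 231 CPM in QCM and 124, 176 and 189 CPM in SCM. These overlapped, with a difference of 0.0014 in SCM against complete media (log2, 95% interval -0.23 to 0.23, adjusted p = 0.996), whose sign changed with the scaling and without SCM + IgG replicate 1 (-0.044), and of -0.18 against QCM (95% interval -0.41 to 0.056, adjusted p = 0.456). In Wnt5a + IgG it had 112, 125 and 134 CPM, below every library of complete media. Bax fell there by 0.42 ± 0.12 (log2, SE, adjusted p = 0.00696), to 0.745 of the level in complete media, which is less than 1.5-fold. An adjusted p under 0.05 with a lower level was reached by 9.4% of all genes in that comparison. Against SCM it fell by 0.43 ± 0.12 (adjusted p = 0.0368), and this adjusted p was below 0.05 in 26 of the 36 fits that left out 1 library, over a range from 0.0173 to 0.114. With all libraries kept, it was 0.0541 with no filter and 0.0629 in a fit of only the groups compared. Bax was the only gene of the 9 with an adjusted p under 0.05 in Wnt5a against SCM, beside 2.12% of all genes downwards. Wnt5a + anti-Ptk7 held a like level of 103 to 141 CPM (difference from Wnt5a + IgG -0.0046, 95% interval -0.24 to 0.23, adjusted p = 0.991). In SCM + anti-Ptk7 Bax ran from 129 to 183 CPM (difference from SCM + IgG -0.093, 95% interval -0.33 to 0.14, adjusted p = 0.734). Bax shares 192 exon bases with the model Gm45808 on the same strand, which had 0 counts.

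Beyond the 10 genes, 39 other direct p53 targets were tested, and edgeR called 3 higher and none lower in SCM against complete media (4.96% and 1.12% of all genes), while DESeq2 and voom with limma each also called 1 lower, Tap1, a peptide transporter of antigen presentation (-0.59 and -0.64, adjusted p = 0.00656 and 0.00815). The 3 higher genes were Sfn (14-3-3 sigma, an epithelial arrest protein) at a log2 fold change of 1.37 ± 0.24 (SE, adjusted p = 0.000138), Plk2 (a stress-induced polo-like kinase) at 0.73 ± 0.17 (adjusted p = 0.00443) and Perp (a desmosome protein) at 0.63 ± 0.094 (adjusted p = 1.81e-05). Without SCM + IgG replicate 1, Sfn and Plk2 were called higher with edgeR, Perp was not, and Tap1 was called lower. The median of the 39 was -0.019, beside 0.0068 for all genes tested. Against QCM none of the 39 was called with edgeR, 2 had an adjusted p under 0.05 (Perp 0.37, adjusted p = 0.0332, and Sesn2 -0.40, adjusted p = 0.0386), DESeq2 called 1 gene, Sfn (0.76, adjusted p = 0.0320), and the median was -0.00029. Without SCM + IgG replicate 1, none of the 39 had an adjusted p under 0.05 against QCM with edgeR. In Wnt5a 4 were called higher (8.29% of all genes), with Sfn at 1.42, Plk2 at 0.99 and Pmaip1 (Noxa, a BH3-only protein) at 0.65 in front, and 3 lower (1.88%), Psrc1 (-0.60), Dglucy (-0.60) and Sesn2 (-0.59), with edgeR, and voom with limma also called Fdxr (-0.59, adjusted p = 0.00604) and Ddit4l (-0.67, adjusted p = 0.0242) lower. With anti-Ptk7, 2 of the 39 were called lower in SCM (0.645% of all genes). Zfp365, a gene of genome stability, fell in SCM by 3.38 ± 0.78 (log2, SE, adjusted p = 0.0133), from 2.64 to 7.96 CPM over the IgG libraries to between 0.0 and 1.07 CPM. Ddit4l, an inhibitor of mTOR signalling, fell in SCM by 0.98 ± 0.22 (adjusted p = 0.0131), from a range of 6.47 to 12.6 CPM to one of 2.52 to 6.26 CPM, without overlap. None of the 39 was called for anti-Ptk7 in Wnt5a, where Btg2, an antiproliferative gene, was 0.53 higher (adjusted p = 0.00181), less than 1.5-fold.

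Of 21 regulators of p53 and damage kinases, 18 were tested, and Ppp1r13l (iASPP, an inhibitor of p53) was the only one called higher in SCM (0.59, adjusted p = 0.0403) against complete media, as were 4.96% of all genes, and in Wnt5a (1.13), as were 8.29%. The SCM call was lost under voom with limma, under other scalings and without SCM + IgG replicate 1. Among 18 other kinase inhibitors and genes of the retinoblastoma pathway, none was called in SCM against complete media or against QCM with edgeR, DESeq2 or voom with limma, and at an unadjusted p under 0.05 with edgeR 1 was higher and 4 were lower against complete media (14.1% and 10.6% of all genes) and 1 was higher and 3 were lower against QCM (8.5% and 8.49%). E2f2, a transcription factor of S phase entry, and Cdkn2c (p18), another INK4 inhibitor, were lower against complete media by less than 1.5-fold (-0.41 and -0.48, adjusted p = 0.00486 and 0.0403). Rb1 was called lower in QCM against complete media (-0.62, adjusted p = 0.0212). None of 14 further genes used as senescence markers, among them Lmnb1, Hmgb2, Glb1 and Hmga2, was called by edgeR in SCM against complete media or QCM, where 3 and 1 were lower at an unadjusted p under 0.05 (10.6% and 8.49% of all genes), Dnmt1, the maintenance DNA methyltransferase, was lower against complete media by less than 1.5-fold (-0.36, adjusted p = 0.00374), and DESeq2 called 1 lower in SCM against complete media, Dpp4 (-0.64, adjusted p = 0.0353), a surface peptidase. Lmnb1, the nuclear lamin whose loss marks senescent cells, differed by -0.21 ± 0.30 (log2, SE, adjusted p = 0.718) in SCM against complete media and by -0.16 (adjusted p = 0.842) against QCM. Its SE leaves changes of this size unresolved. With anti-Ptk7, edgeR called none of the 14 in SCM (0.581% of all genes higher, 0.645% lower) or in Wnt5a (0.452% and 0.432%). By less than 1.5-fold, Glb1 was higher in SCM (0.42, adjusted p = 0.0316). Hmga1 and Macroh2a1 were lower in Wnt5a (-0.37 and -0.25, adjusted p = 0.00620 and 0.0408). Without SCM + IgG replicate 1, none of the 14 had an adjusted p under 0.05 for anti-Ptk7 in SCM.

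The 20 cell cycle genes of the companion list were all tested. None was called in SCM against complete media by any of the 3 tools, 12 had an unadjusted p under 0.05 with edgeR, all lower (10.6% of all genes), and 9 an adjusted p under 0.05, all of them lower by less than 1.5-fold, where 4.45% of all genes were lower at that level. They were the replicative helicase genes Mcm2, Mcm3, Mcm4, Mcm5, Mcm6 and Mcm7, the transcription factor Foxm1, at -0.47 ± 0.11 (log2, SE, adjusted p = 0.00335), and the mitotic kinases Aurkb and Plk1. Mki67 was at -0.23 (adjusted p = 0.202) and Top2a at -0.18 (adjusted p = 0.343). Against QCM none had an adjusted p under 0.05 with edgeR, 7 had an unadjusted p under 0.05, all lower (8.49% of all genes), and Mki67 was at -0.040 (adjusted p = 0.900). The median of the list was -0.21 against complete media and -0.14 against QCM. Their summed level ran from 4437 to 4741 CPM in complete media, from 4133 to 4448 CPM in QCM and from 3657 to 4055 CPM in SCM. SCM overlapped neither complete media nor QCM, and these 2 overlapped by a narrow margin. Without SCM + IgG replicate 1, 7 of the 20 had an adjusted p under 0.05 against complete media, and the medians were -0.20 and -0.086. In Wnt5a against complete media edgeR called none of the 20 (8.29% of all genes higher and 1.88% lower), and the median was -0.25. The summed level ran from 3590 to 4289 CPM in Wnt5a + IgG, below every complete media library. It ran from 2776 to 3892 CPM in Wnt5a + anti-Ptk7 and from 3720 to 4004 CPM in SCM + anti-Ptk7.

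Of 33 SASP genes listed, 18 passed the filter on low counts, and 7 were called higher and none lower in SCM against complete media (4.96% and 1.12% of all genes), with Il1a (2.53, adjusted p = 0.0205), Igfbp3 (2.42, adjusted p = 0.00954) and Igfbp4 (1.68, adjusted p = 9.46e-11) in front. This order is by fold change and not by level. Il1a averaged 0.235 CPM in complete media, under the detection limit of 0.5 CPM, and 1.36 CPM in SCM + IgG. Its fold changes against complete media, in SCM and in Wnt5a, therefore rest on a reference below that limit. Without SCM + IgG replicate 1, 6 were called higher, Igfbp3, Igfbp4, Il1a, Mmp14, Timp2 and Tnf. Of these, Mmp14 was not called with all libraries (0.66, adjusted p = 0.112). A gene could pass the filter through the groups where it is high, so the share called among the tested genes is not read further. Against QCM 1 of the 18 was called higher (0.761% of all genes), Igfbp4, an insulin-like growth factor binding protein, at 1.28 ± 0.13 (log2, SE, adjusted p = 4.09e-07). Igfbp4 had 29.5 to 48.5 CPM in the QCM libraries and 68.4 to 109 CPM in the SCM libraries. In Wnt5a 11 of the 18 were called higher (8.29% of all genes), led by Igfbp3 (3.51), Il1a (3.12) and Timp2 (2.45). With anti-Ptk7, Timp2, a metalloprotease inhibitor, fell in SCM by 1.02 (adjusted p = 0.0488) and in Wnt5a by 1.15 (adjusted p = 0.0190), and Ccl20, a chemokine of the epithelium, rose by 1.51 (adjusted p = 0.00156) and by 1.00 (adjusted p = 0.0323). Of these calls in SCM, that of Timp2 was lost without SCM + IgG replicate 1.

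Of 14 other BCL2 family genes, 12 were tested. In SCM against complete media 3 were called higher (4.96% of all genes), Bmf (a BH3-only activator of apoptosis) at 1.41, Bok (a proapoptotic relative of Bax) at 1.39 and the survival gene Bcl2l1 at 0.65, and none was lower, with the call of Bcl2l1 lost without SCM + IgG replicate 1. In Wnt5a 4 were called higher (8.29% of all genes), Bok at 1.56, Bmf at 1.20, Bcl2l1 at 0.95 and Pmaip1 at 0.65. None was called in SCM against QCM with edgeR, where Bok was at 0.70 (adjusted p = 0.136). The called genes included some that promote and some that oppose apoptosis. Among 12 genes of the integrated stress response, the other inducer of Gdf15, none was called in SCM with edgeR, where 4 were lower at an adjusted p under 0.05 (4.45% of all genes). In Wnt5a 3 were called lower (1.88% of all genes), Psat1 (-0.60), Shmt2 (-0.60) and Trib3 (-0.59), and Atf3 higher (0.77). Chac1, a glutathione-degrading enzyme, fell with anti-Ptk7 by 0.77 in SCM (adjusted p = 0.0186) and by 0.88 in Wnt5a (adjusted p = 0.00683).

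**Figure D3:**
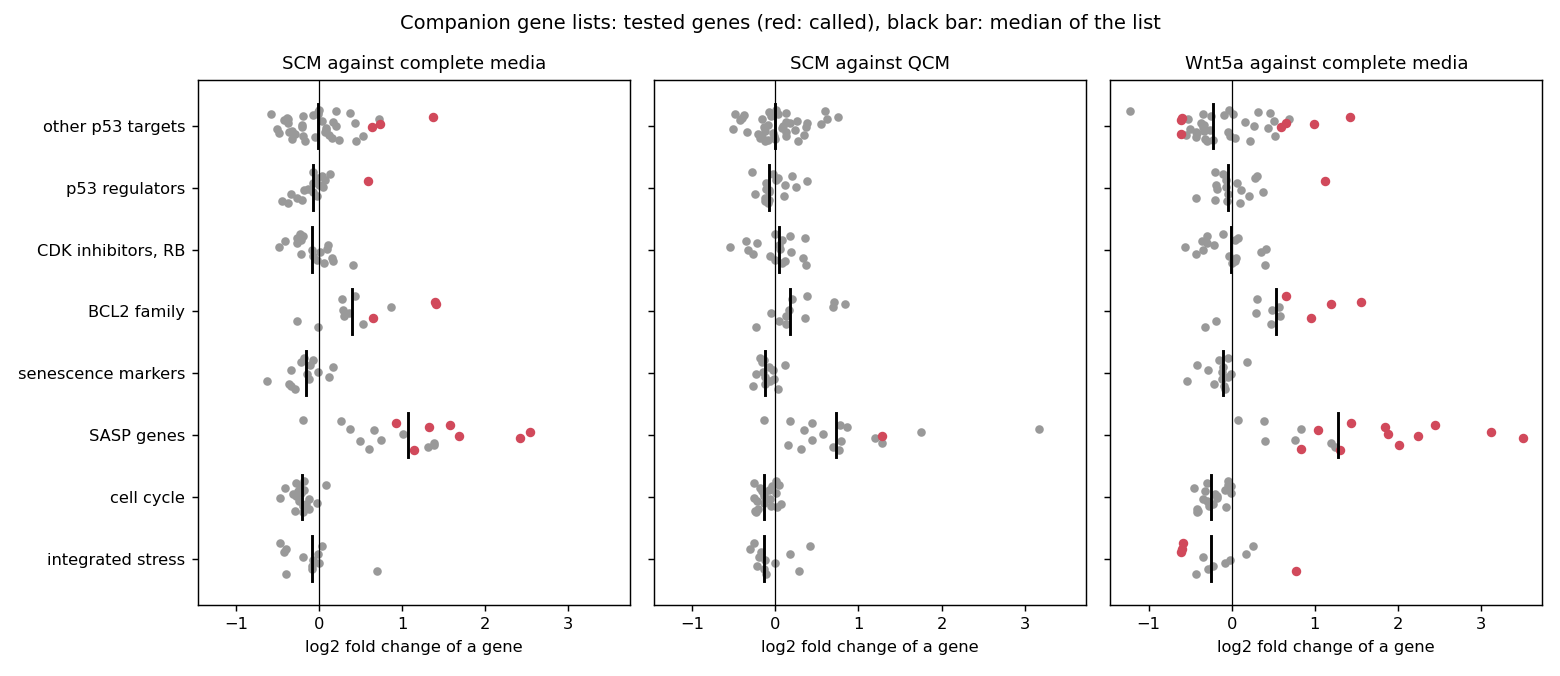
Log2 fold changes (horizontal axis) of the tested genes of 8 companion lists in 3 comparisons, with 1 point a gene, red for called genes and a black bar at the median of the list. The other p53 targets have medians of -0.019 in SCM against complete media and -0.00029 against QCM, and of the SASP list only the 18 of 33 genes that passed the filter are drawn.

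All 9 epithelial markers were detected, and 4 were called higher in SCM against complete media (4.96% of all genes), among them Krt20, a keratin of differentiated villus cells, at 1.84 (adjusted p = 0.00146), with Krt8 and Krt18 at 1.08 and 1.00. The summed level of the list ran from 9930.0 to 13337 CPM in complete media, from 12035 to 16007 CPM in QCM, from 14417 to 22249.6 CPM in SCM and from 16645 to 30766 CPM in Wnt5a + IgG. Complete media did not overlap SCM or Wnt5a. The part of these markers in the levels of Cdkn1a, Cdkn2b, Gdf15 and Bax was not tested.

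The genes whose levels followed those of the members most closely over the 36 libraries are given by Pearson's r of log2 CPM, as a description, since the libraries share treatments, preparation and depth. For Cdkn1a they were Lgals4 (0.92), a galectin of enterocytes, Myl12b (0.88) and Serpinb1a (0.88). Cdkn2b was closest to Itgb4 (0.93), the laminin-binding integrin chain of hemidesmosomes, Tns4 (0.92) and Gsn (0.92), which encode a focal adhesion protein and the actin-severing protein gelsolin. The 10 genes themselves were left out of this ranking. Trp53 was closest to Serbp1 (0.90), Ppan (0.89) and Cd3eap (0.88), of which the last 2 act in ribosome production, and Gdf15 to Rrp15 and Ccdc86 (both 0.83), which are nucleolar, and to Ndufa9 (0.83). Bax was closest to Pgp, Rab5if and Timm13 (0.92, 0.92 and 0.91). The highest values for Mdm2 (0.74, the pseudogene Gm6733), Ccng1 (0.81, Gm13502), Trp53inp1 (0.76, Arl5a) and Bbc3 (0.68, Tmub2) were lower.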

How the data were processed

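Gene counts of 36 libraries were analysed. Per the labels, cDNA was made from 2 ng of total RNA with a SMART-Seq v4 kit and libraries with Nextera XT. The authors filtered reads with HTSeqGenie, aligned them with GSNAP to the mouse genome (NCBI Build 38, mm10) and deposited whole-number counts per Ensembl gene, not normalized. The study's methods state that reads in coding sequence were counted. The annotation and the use of strand in counting are not given in the sources used here. Symbols, positions, exon lengths and coding lengths came from GENCODE annotation of GRCm38, and promoters from RefSeq (GRCm38.p6).

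The versions were 4.3.3 of R, 4.0.16 of edgeR, 3.58.1 of limma and 1.42.0 of DESeq2. Genes were filtered with filterByExpr (15497 of 52636 kept) and scaled by TMM, and edgeR's quasi-likelihood test was fitted to all 36 libraries with 6 group means, so that the groups share the estimate of spread. P-values were adjusted by the Benjamini-Hochberg method over all genes tested. A call took an adjusted p below 0.05 with more than a 1.5-fold change, the study's thresholds. CPM were computed from TMM-scaled library sizes, and log2 CPM used a prior count of 2. Genes under a mean of 0.5 CPM were taken as not detected, and a count of 0 was given the level of 3 counts over the group as its limit. Intervals cover the spread between libraries and limits counting error only.

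Libraries were grouped and numbered from their titles. Replicate pairs differed by a chi-square of at least 7.28 per gene, so that none was taken for a repeated library, and genes at these levels were limited by the spread between libraries more than by depth. The 10 genes and the companion lists were chosen with earlier results of these data known. All 10 members were described. From companion lists, up to 3 genes per list and direction with the largest change among called genes were named for SCM and Wnt5a against complete media, and any called gene for SCM against QCM and for anti-Ptk7. Genes most like a member were the 3 with the highest r. Other companion genes named without a call were chosen after their values were seen. Alternatives were DESeq2, voom with limma after quantile normalization (the study's method), scaling by library size alone or by the upper quartile, all genes unfiltered, only the groups compared, a replicate block, no fold-change cutoff, and each library left out. The tests were checked on simulated counts.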

Additional observations from a re-analysis of the deposited data

Results flagged for a closer look

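In 4 of the 54 sets of 6 libraries examined (9 genes in 6 groups), the highest or lowest library lay farther from the rest than Dixon's 95% limit for 6 values, where chance alone gives about 1 in 20. Cdkn2b in SCM + anti-Ptk7 replicate 1 was at 28.9 CPM, with the other 5 libraries between 19.01 and 20.4 CPM. Mdm2 in QCM + IgG replicate 3 was at 67.9 CPM, below the others at 88.7 to 96.6 CPM. Gdf15 in complete media + IgG replicate 2 was at 18.99 CPM, with the others at 29.2 to 36 CPM, and without this library the fall of Gdf15 in Wnt5a was -1.004 (log2, edgeR, adjusted p = 0.00120). Bbc3 in Wnt5a + IgG replicate 2 was at 15.1 CPM, above the others at 9.39 to 11.1 CPM.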

How the results depend on the processing

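The counts of called genes among the 9 tested kept their value with DESeq2, voom with limma, other scalings, no filter, fits of only the groups compared and a replicate block. Without the fold-change cutoff they became 2 in SCM against complete media (Cdkn1a and Cdkn2b), 3 in Wnt5a against complete media (with Bax added), and 1 each in Wnt5a against SCM (Bax), anti-Ptk7 in SCM (Mdm2) and anti-Ptk7 in Wnt5a (Trp53). With 1 library left out, the count in SCM against complete media ran from 0 (without complete media + IgG replicate 3) to 2 (without complete media + IgG replicate 1, which added Cdkn1a), and no other count of members moved. In all, 13 values changed sign under another setting with all libraries kept, and each was close to 0: Trp53 in QCM against complete media with library size alone (-0.0083); Mdm2 in Wnt5a against SCM with voom (-0.0079), the upper quartile (-0.0026), library size alone (-0.0077) and no filter (-0.0014); Bax in SCM against complete media with voom (-0.017), the upper quartile (-0.010), library size alone (-0.025), no filter (-0.0026) and the replicate block (-0.0023); and Bax for anti-Ptk7 in Wnt5a with voom (0.011), the upper quartile (0.0054) and library size alone (0.015).

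Leaving out 1 library at a time changed the sign of 17 values, none of them called, whose log2 fold changes then ran over these ranges: Trp53 in QCM against complete media (-0.042 to 0.039), Trp53 in Wnt5a against SCM (-0.020 to 0.032), Cdkn2b for anti-Ptk7 against IgG in Wnt5a (-0.35 to 0.031), Cdkn2b for the anti-Ptk7 effect in Wnt5a less that in SCM (-0.12 to 0.27), Mdm2 in QCM against complete media (-0.11 to 0.0078), Mdm2 in Wnt5a against SCM (-0.025 to 0.095), Ccng1 in SCM against complete media (-0.085 to 0.037), Trp53inp1 in SCM against complete media (-0.011 to 0.22), Trp53inp1 in Wnt5a against complete media (-0.070 to 0.16), Trp53inp1 in Wnt5a against SCM (-0.16 to 0.027), Trp53inp1 for anti-Ptk7 against IgG in SCM (-0.0080 to 0.19), Gdf15 in QCM against complete media (-0.17 to 0.018), Gdf15 for the anti-Ptk7 effect in Wnt5a less that in SCM (-0.0046 to 0.29), Bbc3 in Wnt5a against SCM (-0.041 to 0.18), Bbc3 for the anti-Ptk7 effect in Wnt5a less that in SCM (-0.20 to 0.045), Bax in SCM against complete media (-0.059 to 0.098) and Bax for anti-Ptk7 against IgG in Wnt5a (-0.040 to 0.045).

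The replicate numbers are shared by the groups, but the labels do not say that a number marks a mouse. Of 90 pairs of libraries with the same number, 34 had deviations from their group means that correlated above 0.1 (mean r 0.092, against -0.018 for different numbers), and 16 of 36 libraries correlated best with their own number. On the first principal component replicate 1 was the highest, replicate 5 the second and replicate 3 the lowest in 6 of 6 groups, a hint from the data that numbers are shared. As the labels do not say so and not every pair correlated above 0.1, the numbers were not taken as pairs. Counted by number all the same, Cdkn1a was higher in SCM than in QCM in 6 of 6 pairs. It was also higher in QCM than in complete media in 6 of 6. With the replicate block no call of a member changed. Cdkn1a, still under 1.5-fold, then had an adjusted p of 0.0120 in SCM against QCM (log2 fold change 0.27), 0.0242 in QCM against complete media and 0.00927 in Wnt5a against SCM, and Cdkn2b 0.0354 in Wnt5a against SCM and 0.0901 in SCM against QCM. The 95% intervals of SCM against QCM reached a log2 fold change of 0.82 for Cdkn2b and -0.79 for Gdf15, the farthest of the 9 genes in either direction, so differences up to these sizes may have gone undetected with 6 libraries in each group. Levels per kb of coding length, an alternative chosen after seeing the data, put Cdkn1a before Ccng1 and Bax, and Trp53inp1 before Gdf15.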

Other observations

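Levels of the 2 kinase inhibitors ordered the libraries alike within the groups. Replicate 1 had the highest Cdkn1a level in 5 of the 6 groups and the highest Cdkn2b level in 5 of the 6, and replicate 3 had the lowest level of each in 4 of the 6. Replicate 5 was among the top 2 for Cdkn1a in all 6 groups and for Cdkn2b in 4. For Ccng1, replicate 3 was the lowest in 4 groups and replicate 1 the highest in 1. What the replicate numbers share is not given in the sources used here.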
